A study of Homo sapiens with 8 samples.

Results

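The CHD genes, CHD1 to CHD9, encode the chromodomain helicase DNA-binding proteins, a family of ATP-driven chromatin remodellers. The family was examined in lists of N6-methyladenosine (m6A) peaks from chromosome-associated RNA of HEK293T cells, a widely used line derived from human embryonic kidney. Members were taken by name, and a peak belonged to a member if it overlapped the member's RefSeq bounds on GRCh38 by at least 1 bp, on either strand. All 9 genes were found in the RefSeq table, and 8 of them held a peak. They carried 38 of the 23937 peaks of the METTL3-knockout list and 41 of the 29084 peaks of the wild-type list. METTL3 is the catalytic subunit of the main enzyme complex that writes m6A on RNA. The 8 samples were METTL3-knockout IP, METTL3-knockout input, wild-type IP and wild-type input, with 2 replicates each, where IP is RNA pulled down with an m6A antibody kit and input is the same kind of RNA without pull-down. All groups were chromosome-bound RNA of HEK293T grown in the same medium, depleted of DNA and ribosomal RNA. The sources used here give neither the knockout strategy nor whether the knockout line is 1 clone. METTL3 itself held 0 knockout and 2 wild-type peaks.

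CHD proteins use the energy of ATP to slide, space or exchange nucleosomes, and all carry paired chromodomains ahead of a Snf2-type helicase domain. CHD1 and CHD2 form the first subfamily. CHD1 works behind elongating RNA polymerase II and CHD2 deposits histone variant H3.3. CHD3, CHD4 and CHD5 form the second, and are the motor subunits of the NuRD complex, which joins remodelling to histone deacetylation. CHD6 to CHD9 form the third, of very large proteins. CHD7 and CHD8 are known for developmental disorders in humans, CHARGE syndrome and a form of autism. Chromosome-bound RNA is rich in unspliced transcripts, so a peak may lie anywhere between the ends of a gene. The tables used here hold no exons, and none of the peaks below is called exonic or intronic.

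Each list stands for 2 IP and 2 input libraries and gives no value per replicate, so no difference below has a replicate check, and none was tested across replicates. The fold is the authors' value for IP over local input at the peak's summit. Whole IP reads at the summit and the local input were recovered from the deposited fold and p of each peak, uniquely for 37 of the 38 knockout and 40 of the 41 wild-type CHD peaks. The CHD peaks rested on a median of 49 IP reads in the knockout and 39.5 in wild type, beside 32 and 25 over all knockout and all wild-type peaks. One IP read weighed 0.479 and 0.438 for knockout reads on the plus and minus strand and 0.607 and 0.572 for wild-type reads, so read numbers are not on the same scale in both lists. Local input is the background level in the fold, in units of reads and often fractional, and is not a count of input reads. It was low, with a median of 2.78 at knockout and 2 at wild-type CHD peaks. Over all knockout and all wild-type peaks the medians were 1 and 0.84. Many folds therefore rest on a low background level, and the number of input reads behind it could not be recovered. The median fold of the CHD peaks was 7.28 in the knockout and 6.92 in wild type, beside 7.06 over the whole knockout list and 7.29 over the whole wild-type list.

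All 8 CHD genes with a peak in either list had peaks in both, beside 55.6% of all protein-coding genes with a peak in either list. The latter include genes with 1 peak, which cannot have peaks in both. The CHD genes are also longer, with a median of 78.5 kb beside 24.1 kb for all protein-coding genes. No comparison with genes of like length or peak number was made. CHD5 held 0 peaks in either list. CHD9 held the most, with 13 knockout and 11 wild-type peaks. CHD1 had 5 in the knockout and 8 in wild type, and CHD7 had 4 in the knockout and 6 in wild type. CHD6 had 5 in each list and CHD2 had 4 in each. CHD4 had 4 knockout and 3 wild-type peaks, CHD3 had 2 knockout and 1 wild-type peak, and CHD8 had 1 knockout and 3 wild-type peaks. All 38 knockout peaks lay on 1 strand per gene, as did 40 of the 41 wild-type peaks. Where the RefSeq promoter table gives the strand (6 of the 9 genes), that was the strand of the CHD gene. The exception was a wild-type peak at the start of CHD1.

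**Figure D1:**
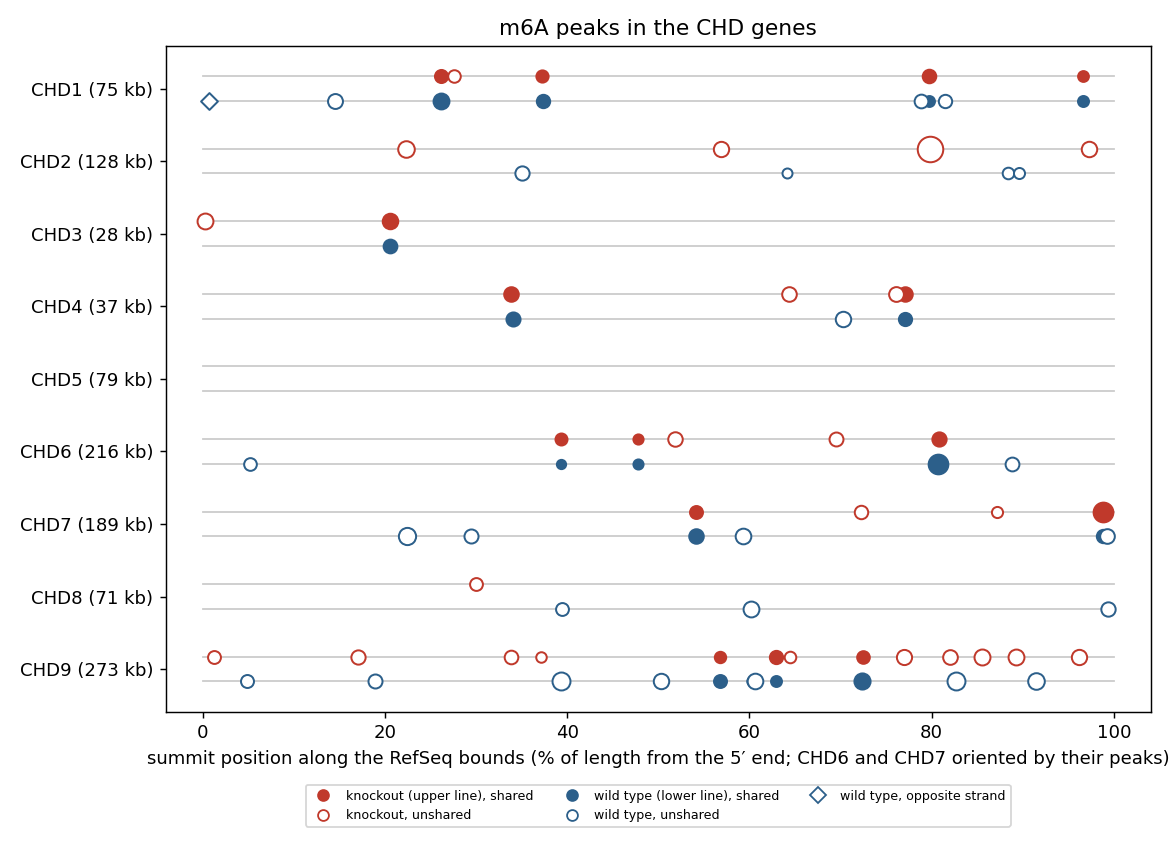
Position of every peak summit along the 9 CHD genes, in percent of the RefSeq bounds from the 5′ end (for CHD6 and CHD7 taken from the strand of their peaks), with the METTL3 knockout on the upper and wild type on the lower line of each gene. Point area grows with fold, filled points overlap a peak of the other list, and the diamond marks the peak on the opposite strand: filled points stand above one another in 6 genes, CHD2 and CHD8 have open points only, and CHD5 has none.

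CHD1, on chromosome 5 from 98853985 to 98929007 and read from the minus strand, had the most pairs between the lists, 4. Of its peaks, 4 of 5 in the knockout and 4 of 8 in wild type had a partner, meaning a peak on the same strand of the other list with 1 bp or more in common. The pair with the most reads had its summits 15221 bp (knockout) and 15236 bp (wild type) from the 3′ bound, at 98869103 to 98869373 in the knockout and 98869110 to 98869377 in wild type. It had a fold of 6.64 from 286 IP reads in the knockout, against 3.80 from 244 IP reads in wild type. Local input there was 18 in the knockout and 36 in wild type. The summits of this pair were 15 bp apart. The pair at 98909239, where both lists place the start, went the other way, with 6.07 in the knockout and 9.63 in wild type. The pair nearest the 3′ bound, with its summits 2545 bp (knockout) and 2529 bp (wild type) from it, had folds of 3.71 in the knockout and 3.86 in wild type. The pair at 98900925 (knockout) and 98900814 (wild type) had 5.11 in the knockout and 6.39 in wild type. The unshared knockout peak at 98908231 had a fold of 5.48 from 123 reads. It ended 790 bp from the nearest wild-type peak.

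The strand exception was a weak wild-type peak at chromosome 5, 98928493 to 98928692, on the plus strand. Its fold was 4.78, from 10 IP reads over a local input of 0.48, with a −log10 q of 3.43. It lay 315 bp inside CHD1 from the start of CHD1, and spanned the start of CHD1-DT, a long noncoding RNA annotated as the divergent transcript of CHD1, at 98928562. It was the only CHD peak to overlap any window of the RefSeq promoter table, which runs from 250 bases before to 50 after a gene's start. The knockout list had no plus-strand peak within 55.2 kb. The CHD1-DT window (RefSeq, GRCh38.p14, chr5:98928312-98928611, plus strand) is shown because the peak lies over it, with the 119 bases under the peak in capitals.
CHD1-DT: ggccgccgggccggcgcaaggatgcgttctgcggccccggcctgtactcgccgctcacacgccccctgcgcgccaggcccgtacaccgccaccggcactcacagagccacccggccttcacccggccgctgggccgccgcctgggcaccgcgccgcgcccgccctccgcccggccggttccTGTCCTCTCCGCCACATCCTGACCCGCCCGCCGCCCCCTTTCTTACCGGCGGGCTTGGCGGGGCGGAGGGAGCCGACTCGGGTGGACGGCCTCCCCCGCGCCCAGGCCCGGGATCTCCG
The window had 79% G and C and 43 CG pairs, beside medians of 58.7% and 14 over 35116 windows. GGACT, a frequent m6A context, was absent from the window on either strand, and its core GGAC, which GGACT contains, occurred once under the peak on the strand of the peak and once on the other strand. GGACT was found on the transcript strand of 25.3% of all windows, on the opposite strand of 25.3% and on either in 44.2%. The shares for GGAC were 66.3%, 66.1% and 87.4%.

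CHD2, on chromosome 15 from 92900324 to 93027996 on the plus strand, held 4 peaks in each list and shared none. Most peaks in all lacked a partner too, since 24.8% of all knockout and 20.4% of all wild-type peaks had 1. The knockout peak at 93002035 to 93002403 had the highest fold of all CHD peaks, 27.1, which was rank 37 of the knockout list. It rested on 136 IP reads over a local input of 1.44. The nearest wild-type peak on that strand was 10.6 kb away. The other knockout peaks had folds of 10.6 (92928839 to 92929053, 32 reads), 8.85 (92972843 to 92973045, 40 reads) and 9.04 (93024389 to 93024760, 62 reads). Those of wild type had 7.48 (92944916 to 92945328, 39 reads), 2.97 (92981996 to 92982240, 103 reads), 4.48 (93013030 to 93013355, 19 reads) and 3.93 (93014605 to 93014804, 10 reads). All 4 knockout folds lay above all 4 wild-type folds in this gene. The peaks lie at different places, so these folds set unlike sites side by side and give no change at any site. The wild-type peak of lowest fold had the most wild-type reads and a local input of 20.4. The last of the wild-type peaks had a −log10 q of 2.16, close to the lowest value in that list, 2.01.

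The NuRD motor genes differed from one another in peak number. CHD3, on chromosome 17 from 7884796 to 7912755, held the best supported CHD pair by −log10 q. It lay at 7890412 to 7890679 in the knockout and 7890417 to 7890678 in wild type. That was 1623 bp (knockout) and 1628 bp (wild type) downstream of a start that the promoter table lists inside the gene. Its summits were 5752 bp (knockout) and 5755 bp (wild type) from the upstream bound. Its fold was 9.15 from 265 IP reads in the knockout and 6.88 from 259 IP reads in wild type. Its −log10 q was 73.0 in the knockout and 72.0 in wild type. Its summits were 3 bp apart. A further knockout peak with a fold of 9.61 from 42 reads lay across the upstream bound of CHD3, on the plus strand of CHD3, at 7884733 to 7884934. That place is also inside the bounds of NAA38, which the promoter table puts on the minus strand.

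CHD4, on chromosome 12 from 6570082 to 6607379 on the minus strand, had 2 pairs among 4 knockout and 3 wild-type peaks. The first was at 6578526 to 6578737 (knockout) and 6578517 to 6578734 (wild type), with a fold of 7.80 from 158 reads in the knockout and 6.26 from 134 reads in wild type. The second was at 6594641 to 6594843 (knockout) and 6594629 to 6594838 (wild type), with 7.91 in the knockout and 7.27 in wild type. All 7 CHD4 peaks were close in fold, from 7.80 to 8.15 in the knockout and from 6.26 to 8.99 in wild type. An unshared knockout peak at 6578860 to 6579096, with a fold of 8.15 from 102 reads, began 126 bp beyond a wild-type peak. The unshared wild-type peak at 6581076 to 6581541 (fold 8.99, 80 reads) reached into SCARNA11, a small Cajal body RNA gene. The peaks in the 3′ part of CHD4 also lie in the bounds of CHD4-AS1, but on the minus strand, whereas CHD4-AS1 is on the plus strand in the promoter table. CHD5, the third motor gene and known mainly from brain and testis, had no peak over its 78.5 kb on chromosome 1, as had 52.2% of all protein-coding genes.

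CHD6, on chromosome 20 from 41402083 to 41618377, had 3 pairs among 5 peaks in each list, all on the minus strand. The pair at 41533099 to 41533527 (knockout) and 41533287 to 41533517 (wild type) had the most IP reads of any CHD pair, 366 in the knockout and 263 in wild type. Its folds were 4.89 in the knockout and 2.33 in wild type, and local input was 32 in the knockout and 64 in wild type. The pair at 41443571 to 41443836 (knockout) and 41443633 to 41443865 (wild type) stood the other way, with 7.48 in the knockout and 15.6 in wild type. It rested on 49 IP reads over a local input of 2 in the knockout, and on 55 IP reads over 1.08 in wild type. The third pair, at 41514921 (knockout) and 41514917 (wild type), had nearly equal folds of 3.12 in the knockout and 3.05 in wild type. In CHD6 the direction differed from pair to pair within 1 gene.

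CHD7, on chromosome 8 from 60678740 to 60868028, had 2 pairs among 4 knockout and 6 wild-type peaks, all on the plus strand. The pair near the downstream bound by the strand of the peaks, at 60865266 to 60865872 (knockout) and 60865666 to 60865865 (wild type), had the largest excess of knockout over wild-type fold in the family, with 15.7 in the knockout and 6.40 in wild type. It rested on 70 IP reads over a local input of 1.2 in the knockout, and on 30 IP reads over 2 in wild type. A second wild-type peak, unshared, began 574 bp further on, at 60866446 to 60866645 (fold 8.003). The pair at 60781068 to 60781354 (knockout) and 60780962 to 60781424 (wild type) had folds of 5.93 in the knockout and 7.86 in wild type. The wild-type peak of highest fold in CHD7, 11.6 at 60721094 to 60721300, had no knockout peak within 59.8 kb.

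CHD8, on chromosome 14 from 21385199 to 21456123 on the minus strand, shared none of its 1 knockout and 3 wild-type peaks. Of all peaks, 24.8% in the knockout and 20.4% in wild type had a partner. The knockout peak at 21434709 to 21435014 had a fold of 5.79 from 77 reads, with its summit 21248 bp from the upstream bound. It began 2261 bp downstream of a start that the promoter table lists inside the gene. The wild-type peaks had folds of 7.57 (21385501 to 21385899), 9.55 (21413357 to 21413579) and 5.82 (21427980 to 21428188). The first of these had its summit 471 bp from the 3′ bound, in the bounds of LOC107984643 as well, a noncoding gene of the plus strand.

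CHD9, on chromosome 16 from 53054991 to 53327497 on the plus strand, had the most peaks, of which 3 of 13 in the knockout and 3 of 11 in wild type had a partner, beside 24.8% of all knockout and 20.4% of all wild-type peaks. The best supported pair was at 53209434 to 53209713 (knockout) and 53209395 to 53209795 (wild type), 983 bp (knockout) and 944 bp (wild type) downstream of the nearest start that the promoter table lists inside the gene. Its fold was 4.25 from 122 reads in the knockout and 5.94 from 155 reads in wild type. The pair at 53226203 to 53226413 (knockout) and 53226204 to 53226404 (wild type) had 6.30 from 103 reads in the knockout and 3.82 from 55 reads in wild type. In the third, at 53252463 to 53252736 (knockout) and 53252006 to 53252585 (wild type), the summits were 416 bp apart, with folds of 5.59 in the knockout and 9.99 in wild type. The 10 unshared knockout and 8 unshared wild-type peaks were spread along the whole gene. The 2 highest wild-type folds were unshared, 12.7 at 53162053 to 53162260 and 12.6 at 53280311 to 53280731, from 41 and 40 reads. The knockout peak at 53298107 to 53298411 (fold 9.61) also overlapped the pseudogene LOC100310835. The highest knockout fold, 9.74 at 53287762 to 53288004, was unshared as well and came from 43 reads.

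**Figure D2:**
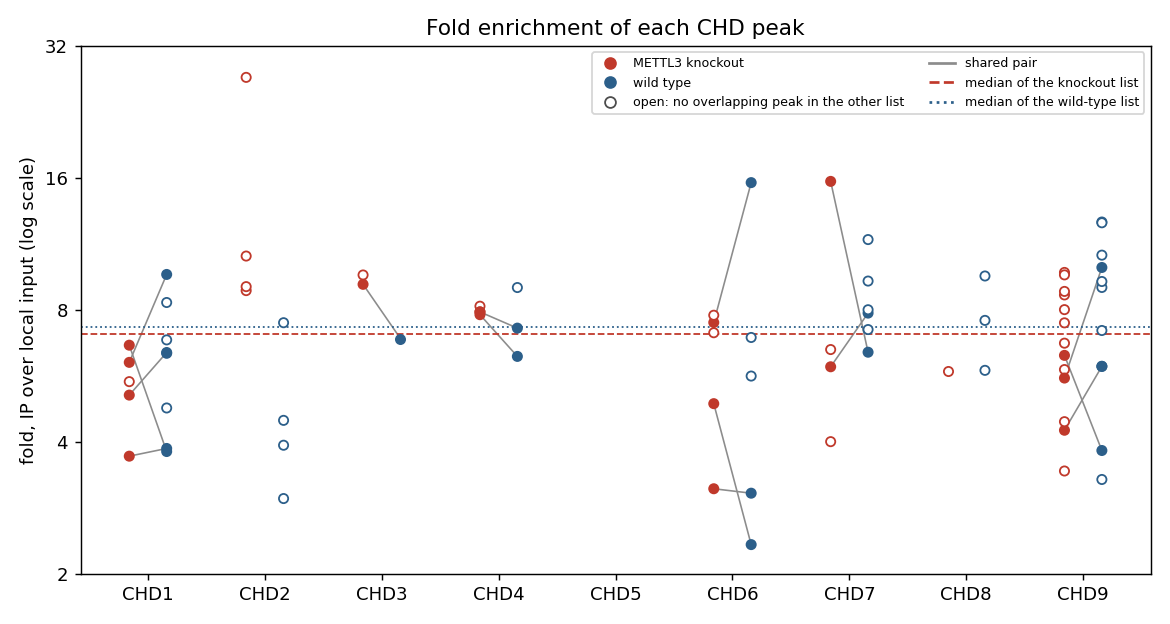
Fold of IP over local input for every CHD peak on a log scale, METTL3 knockout to the left of wild type in each gene; lines join shared pairs and open points have no overlapping peak in the other list. CHD2 has the single highest fold (27.1, knockout), and the lines of CHD1, CHD6, CHD7 and CHD9 slope both ways; horizontal lines mark the list medians of 7.06 (knockout) and 7.29 (wild type).

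Over the whole family, 15 of 38 knockout peaks (39.5%, 95% Clopper-Pearson interval 24.0 to 56.6) had a wild-type partner, and 15 of 41 wild-type peaks (36.6%, 22.1 to 53.1) a knockout partner. Over all peaks the shares were 24.8% in the knockout list and 20.4% in the wild-type list, and within protein-coding bounds 26.5% of knockout and 21.3% of wild-type peaks. Intervals cover counting error only, and peaks of 1 gene are not independent. The share was highest among the best supported peaks, but over the lower bins the few CHD peaks followed no steady order. At a −log10 q of 20 or more, 7 of 9 knockout and 8 of 13 wild-type CHD peaks had a partner, beside 57.2% of all such knockout and 49.5% of all such wild-type peaks. Between 10 and 20 it was 4 of 16 in the knockout (25%, beside 30.4% of all such peaks) and 4 of 17 in wild type (23.5%, beside 23.0%). Between 5 and 10 it was 3 of 10 in the knockout (30%, beside 16.01%) and 3 of 7 in wild type (42.9%, beside 11.9%). Below 5 it was 1 of 3 in the knockout and 0 of 4 in wild type (interval 0 to 60.2%), beside 12.1% in either list. With peaks of at least 31 IP reads, a limit chosen after seeing the data, 13 of 32 knockout CHD peaks (40.6%) had a partner, beside 39.1% of all such peaks. In wild type it was 13 of 27 (48.1%), beside 38.6%. At that support the knockout share of the CHD genes was near that of all peaks.

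Shared and unshared CHD peaks differed in reads more than in fold. Shared peaks had a median of 103 IP reads in the knockout and 86 in wild type, and unshared peaks 41 in the knockout and 33 in wild type. Local input had medians of 7 (knockout) and 8 (wild type) at shared peaks, and 1.36 (knockout) and 1.4 (wild type) at unshared ones. The median fold was 6.07 in the knockout and 6.39 in wild type at shared peaks, and 7.91 in the knockout and 7.34 in wild type at unshared ones. The split by reads was not clean. Unshared knockout peaks reached 136 reads in CHD2, 123 in CHD1 and 102 in CHD4. Unshared wild-type peaks reached 103 reads in CHD2, 100 in CHD8 and 89 in CHD1. Of the unshared CHD peaks, 2 of 23 in the knockout and 2 of 26 in wild type lay within 1 kb of a peak of the other list on the same strand. That was 8.70% in the knockout and 7.69% in wild type, beside 8.94% of all unshared knockout and 6.95% of all unshared wild-type peaks.

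**Figure D3:**
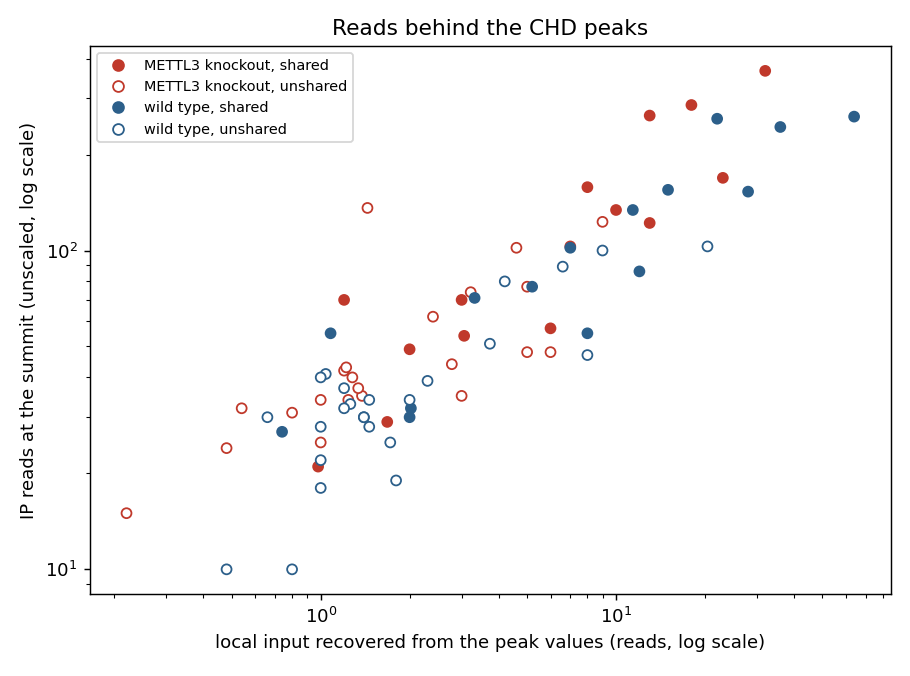
IP reads at the summit against local input for the CHD peaks whose reads could be recovered (37 METTL3 knockout and 40 wild type), both axes logarithmic, reads not scaled between lists. Filled (shared) points reach the upper right, and most open (unshared) points lie at a local input of 1 to 3. The CHD2 knockout peak lies above them at 136 IP reads.

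At the 15 shared pairs the fold had no common direction. It was higher in the knockout at 8 pairs and lower at 7, and the log2 fold, knockout minus wild type, had a median of 0.03 (quartiles −0.45 and 0.57, SD 0.71 over pairs). Over all 5947 wild-type peaks with a partner the median was 0.02 (quartiles −0.50 and 0.51) and 51.0% were higher in the knockout. The CHD values ran from −1.06 in CHD6 to 1.29 in CHD7, percentiles 8.78 and 94.0 of all pairs. Summits of CHD pairs were a median of 17 bp apart, beside 29 bp over all pairs. The pairs of CHD3 and CHD4, 3 in all, were each higher in the knockout, by 0.41, 0.32 and 0.12 on the log2 scale. In those 3 pairs local input was lower in the knockout, at 13, 8 and 3, against 22, 11.4 and 5.2 in wild type. The recovered lowest local input, which follows input depth, was 0.16 and 0.135 in the knockout and 0.173 and 0.147 in wild type (plus and minus strands). The part of input level in these folds was not tested.

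**Figure D4:**
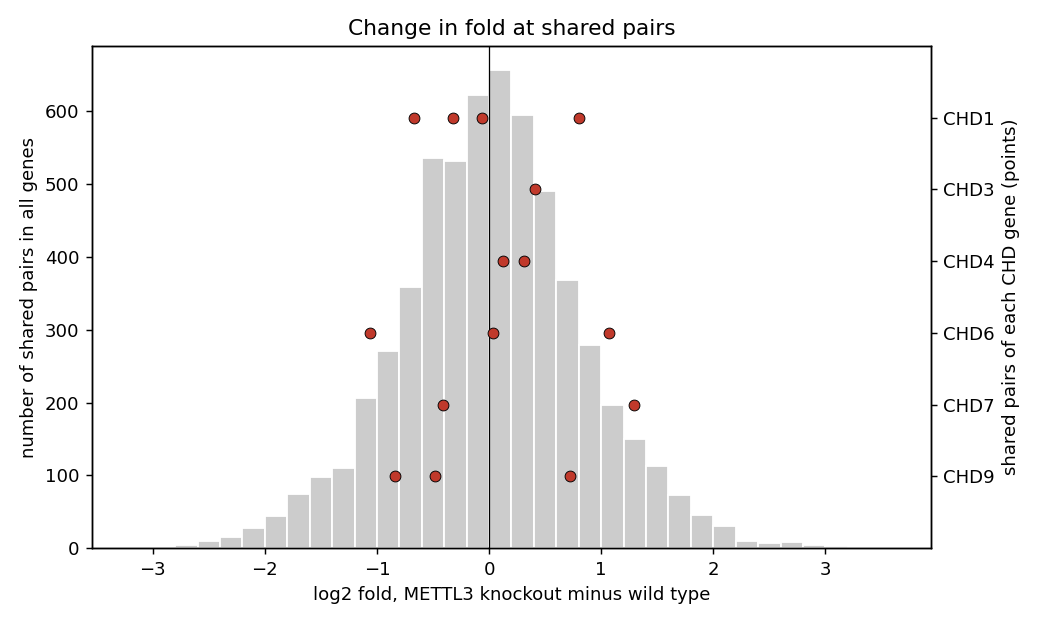
Histogram of the log2 fold of the METTL3 knockout minus wild type at all shared pairs (grey, left axis), with the 15 pairs of the CHD genes as points by gene. The points spread on both sides of 0, from −1.06 to 1.29, inside the bulk of the grey distribution.

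Each gene was divided into 3 equal parts from its 5′ end. On the strand of the gene, 8, 13 and 17 of the 38 knockout peaks were in the upstream, middle and downstream part, and 8, 16 and 16 of the 40 wild-type peaks. The downstream part held 44.7% of the knockout and 40% of the wild-type CHD peaks. Of all peaks in the body of 1 protein-coding gene on its strand, it held 34.7% in the knockout and 34.2% in wild type. The last 5% of the gene held 4 knockout peaks (CHD1, CHD2, CHD7 and CHD9) and 4 wild-type peaks (CHD1, CHD8 and 2 in CHD7), or 10.5% of knockout and 10% of wild-type CHD peaks, beside 5.43% of knockout and 5.11% of wild-type peaks in all. The first 5% held 2 knockout peaks (CHD3 and CHD9) and 1 wild-type peak (CHD9), or 5.26% of knockout and 2.5% of wild-type CHD peaks, beside 5.39% of knockout and 5.86% of wild-type peaks in all. The promoter table gives no strand for CHD6 and CHD7, so for their 9 knockout and 11 wild-type peaks the 5′ end was taken from the peaks themselves, which puts those peaks on the gene's strand by construction. Without both genes, a choice made after seeing the data, the downstream part held 12 of 29 peaks in either list (41.4%), and the last 5% held 3 of 29 in the knockout (10.3%) and 2 of 29 in wild type (6.90%). With so few peaks the counts are given as a description.

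Numbers of peaks per gene were compared between the lists for 12199 genes by Fisher's exact test (2-sided, Benjamini-Hochberg adjusted over these genes), which compares these 2 lists and not the genotypes. It called 0 of the 8 CHD genes with a peak, beside 0.0328% of all genes, and at an unadjusted p under 0.05 also 0 of 8, beside 1.26%. CHD3, with 2 knockout peaks and 1 wild-type peak, held too few to reach an unadjusted p under 0.05 at any split. The adjusted call needs a far smaller p, which most CHD genes held too few peaks to reach at any split. For those genes the adjusted outcome was fixed by their peak number and does not show equal numbers in the lists. The smallest unadjusted p in the family was 0.416 (CHD9, 13 knockout and 11 wild-type peaks), with an adjusted p = 1 in Fisher's exact test. Per length of the gene, peaks were densest in CHD4 in the knockout, followed by CHD3, and in CHD1 in wild type, followed by CHD4. CHD4 had 10.7 knockout and 8.04 wild-type peaks per 100 kb, and CHD1 had 6.66 knockout and 10.7 wild-type peaks per 100 kb. CHD3 had 7.15 in the knockout and 3.58 in wild type, CHD9 4.77 in the knockout and 4.04 in wild type, CHD7 2.11 in the knockout and 3.17 in wild type, and CHD8 1.41 in the knockout and 4.23 in wild type. CHD2 had 3.13 and CHD6 had 2.31 in either list. The median over protein-coding genes with a peak in that list was 3.24 in the knockout and 3.81 in wild type. Pooled over all 9 CHD genes, the density was 3.47 in the knockout and 3.74 in wild type. Pooled over all protein-coding genes, of which 52.2% had no peak, it was 1.46 in the knockout and 1.81 in wild type. CHD genes are long, with a median of 78.5 kb, beside 24.1 kb for all protein-coding genes.

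**Figure D5:**
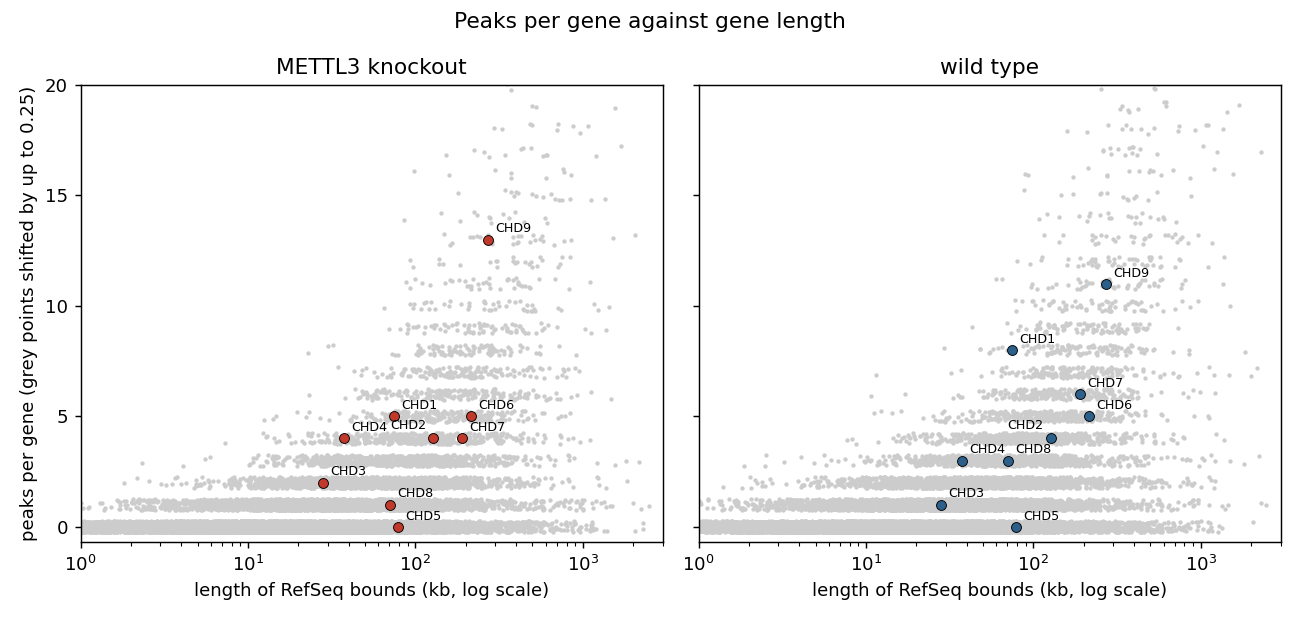
Peaks per gene against the length of the RefSeq bounds (log scale) for all protein-coding genes (grey) and the CHD genes (coloured, named), METTL3 knockout on the left and wild type on the right. The axis ends at 20 peaks, above which lie 29 genes in the knockout and 48 in wild type; peak number grows with length in the grey points, and the CHD genes lie within them.

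The partners of CHD3, CHD4 and CHD5 in NuRD include histone deacetylases, scaffold subunits and a subunit that binds methylated DNA. Of 12 NuRD partner genes, 7 had peaks in both lists and 3 (MTA1, MTA2 and MBD3) had 1 peak each in the knockout alone. Peaks in wild type alone were found in 0 of them, and 2, RBBP4 and RBBP7, had none. Of 9592 protein-coding genes with a peak, 55.6% had peaks in both lists, 17.2% in the knockout alone and 27.2% in wild type alone. The 12 NuRD partners held 17 knockout and 24 wild-type peaks, of which 4 in each list were shared. That was 23.5% of the knockout and 16.7% of the wild-type peaks, beside 26.5% and 21.3% in all protein-coding bounds. MTA3, a scaffold subunit, had 5 knockout and 8 wild-type peaks with 1 shared, and GATAD2B, a bridging subunit, 1 knockout and 5 wild-type peaks with 1 shared. HDAC2, a catalytic deacetylase, had 1 knockout and 4 wild-type peaks with 1 shared, and MBD2, which binds methylated DNA, 2 knockout and 3 wild-type peaks with none shared. Of 22 other ATPases with a Snf2-type domain, 16 had peaks in both lists, 3 in the knockout alone (RAD54L, ERCC6L and SMARCA1) and 3 in wild type alone (RAD54L2, SMARCA2 and SMARCA5). They held 62 knockout and 65 wild-type peaks with 19 shared in each list (30.6% of the knockout and 29.2% of the wild-type peaks), beside the same 26.5% in the knockout and 21.3% in wild type. ZRANB3, a DNA damage translocase, led with 14 knockout and 12 wild-type peaks and 4 shared, followed by ATRX, a heterochromatin remodeller, with 8 knockout and 7 wild-type peaks and 3 shared. SHPRH, a ubiquitin ligase with a Snf2 domain, had 7 knockout and 5 wild-type peaks with 3 shared, and SMARCA4, a motor of the SWI/SNF complex, 5 knockout and 4 wild-type peaks with 2 shared. Among the NuRD partners and ATPases with a peak, the test of peak numbers called 0, also at an unadjusted p under 0.05. Of all genes it called 0.0328% and 1.26%. RBBP4 and RBBP7 held no peak and were not tested. In ERCC6L, 3 knockout and 0 wild-type peaks gave an unadjusted p of 0.0920 (Fisher's exact test). A gene with 3 peaks or fewer therefore could not reach an unadjusted p under 0.05, whatever its split. The adjusted call needs a far smaller p, which most genes of these 2 lists held too few peaks to reach at any split. Whether the shares of these gene lists differ from that of the CHD genes was not tested.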

How the data were processed

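Chromosome-associated RNA of METTL3-knockout and wild-type HEK293T cells was sequenced as m6A IP and input, with 2 replicates of each. Per the submitters' processing notes, the tools were MACS2 2.2.7.1, SAMtools 1.15.1 and HISAT2 2.2.1 on hg38, with no order or settings. The authors deposited 1 peak list per genotype, without values per replicate. The sources used here do not say whether replicates were pooled before calling. The deposited score, a display number, was left out. The deposited fold is a ratio of IP over local input, and the deposited −log10 columns hold the p-value and q-value. The lowest deposited −log10 q was 2.02 in the knockout and 2.01 in wild type.

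Bounds and promoter windows came from RefSeq (GRCh38.p14), with 6 of 9 CHD genes in the promoter table. Peaks were shared at 1 bp of overlap on the same strand. Whole reads were recovered from fold = (scaled IP + 1) / (local input + 1) and a Poisson tail p, within 0.01 of the deposited −log10 p, uniquely for 90.9% of knockout and 93.7% of wild-type peaks. Total depth is not given in the files. The per-gene test and the recovery were checked on simulated data. The simulated changed genes were given more peaks than most CHD genes hold, so the check of the test does not cover genes with few peaks. Shares have exact 95% intervals for counting error only. Named genes were the 9 members, METTL3, genes overlapping a member peak, and up to 4 per partner list by number of peaks, and genes singled out by a count of 5 or fewer were named after their values were seen. The members and lists were chosen with earlier results of these data known. Alternatives were other overlap rules, stricter lists, strand and gene assignment. Python 3.11.15, numpy 2.4.6, pandas 2.3.3, SciPy 1.17.1 and matplotlib 3.10.9 were used.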

Additional observations from a re-analysis of the deposited data

How the results depend on the processing

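The share of knockout CHD peaks with a partner was 31.6% with a reciprocal overlap of 50%, 34.2% with summits within 100 bp, 40% at a −log10 q of 5 or more, and 39.5% both with equal numbers of strongest peaks and on the gene's strand. For wild-type peaks these were 29.3%, 31.7%, 37.8%, 41.7% and 37.5%. The shares over all peaks under the first 4 of these settings were 20.7%, 20.7%, 25.4% and 22.4% for the knockout. For wild type they were 17.0%, 17.0%, 20.01% and 22.4%. The strand setting was applied to the CHD peaks only, so the shares over all peaks stayed at 24.8% (knockout) and 20.4% (wild type). The 31-read limit, added after seeing the data, brought the shares over all peaks to 39.1% (knockout) and 38.6% (wild type), beside 40.6% and 48.1% of CHD peaks. Without CHD6 and CHD7, the downstream part of the gene held 41.4% of CHD peaks in either list. CHD genes with peaks in both lists numbered 8 under each of the 4 settings tried. The median log2 fold difference at CHD pairs was 0.08 with reciprocal overlap, 0.08 with each list centred, 0.04 from the recovered reads without the added 1, and −0.29 with −log10 q in place of fold, where all pairs had −0.08. The last is another quantity, with a sign opposite to the fold's median of 0.03, and medians over so few pairs have no error here to set these shifts against. The test of peak numbers called 3 or 4 genes under its 4 alternatives and 0 CHD genes, most of which held too few peaks to be called. No paired analysis was possible because the deposited lists carry no values per replicate, and for the same reason no replicate could be left out. Low local input limits many of the folds. Reads from a gene's own strand alone could not be checked for CHD5, CHD6 and CHD7, whose strand the promoter table does not give.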
